A study of Mus musculus with 24 samples.

Results

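The interaction between MK-8722 and genotype is the difference between 2 responses: the change that MK-8722 produced against DMSO in AMPK KO mouse embryonic fibroblasts (MEFs), minus the change it produced in WT MEFs. It was estimated for 15828 of the 55487 genes in the count table, those with enough counts for a test, from 16 of the 24 libraries of the series. A positive value means that the AMPK KO response lay above the WT response and a negative value that it lay below, on a log2 scale, so a value of 0 stands for equal responses. The series asked whether gene regulation by an AMPK activator and by an MTOR inhibitor, torin1, depends on AMPK. The rule picks out no genes, and all genes tested are described, first by size and kind of difference and then by function; genes named for the size of their interaction were picked on that same value, which is therefore a description.

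AMPK is a kinase that senses a fall in cellular energy; its catalytic subunit is encoded by Prkaa1 or Prkaa2, and MK-8722 is a small molecule that activates the complex directly. Among the best known downstream events is the nuclear entry of the related transcription factors TFEB and TFE3, which bind E-box elements near genes of lysosomes and autophagy. A difference of responses measures, gene by gene, how far the effect of the activator depended on the genotype.

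The groups were WT MEFs with DMSO, WT MEFs with MK-8722, AMPK-KO MEFs with DMSO and AMPK-KO MEFs with MK-8722, with 4 libraries in each, and the AMPK-KO cells were prkaa1 prkaa2 double knockout. The WT libraries were of passages 12, 13, 14 and 15 and the AMPK KO libraries of passages 16, 17, 18 and 19, each passage giving 1 library per treatment, so that every MK-8722 library has a DMSO partner. All cells were of embryonic fibroblast type, with no other allele or agent in the labels, and every library was of the same labelled batch. The genotypes share no passage, so genotype, cell stock and passage cannot be told apart, and p-values measure the spread between passages of 1 WT and 1 AMPK KO stock, not between embryos. Whether either stock was a clone, and the dose and duration used for these libraries, are not given in the labels.

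Library totals ran from 26900240 to 34192685 estimated counts, and RNA integrity numbers from 9.7 to 10. Prkaa1 stood at 80.9 ± 2 (SD, n = 4) and 70.9 ± 2.95 CPM (counts relative to the library total, scaled by TMM) in the WT and AMPK KO DMSO libraries, and Prkaa2 at 4.74 ± 1.12 and 3.21 ± 0.97. Both transcripts were therefore counted in the AMPK KO libraries, and their levels do not check the label. Of 10 fibroblast markers, 7 exceeded 1 CPM in every library, with Vim, Fn1 and Col1a1 never below 829.6 CPM, whereas Lum never exceeded 1 count, Thy1 never exceeded 1.87 CPM and Postn was at 0.0654 CPM at its lowest. The fibroblast markers summed to between 11218 and 16174 CPM in WT libraries. In the AMPK KO libraries the sum lay between 4981 and 5800 CPM. Col1a2, a chain of type I collagen, averaged 2503 CPM in WT DMSO and 28.4 CPM in AMPK KO DMSO libraries. Of 4 macrophage markers Adgre1 was at 0, Ptprc at 1 count at most and Csf1r never above 0.584 CPM, while Cd68, a protein of lysosomal membranes, exceeded 1 CPM in every library and averaged 2.05 CPM in WT DMSO and 3.65 CPM in WT MK-8722 libraries, beside 1.61 and 1.68 CPM in AMPK KO libraries. The macrophage sum lay between 1.98 and 2.85 CPM in WT DMSO and between 3.14 and 4.67 CPM in WT MK-8722 libraries, and between 1.31 and 2.23 CPM in AMPK KO libraries. The epithelial markers Epcam and Cdh1 stayed at or under 2.81 CPM. The endothelial markers summed to between 0.807 and 1.21 CPM in WT DMSO libraries and between 4.36 and 8.49 CPM with MK-8722, by Kdr alone, with Pecam1 and Cdh5 never above 0.484 CPM. The part of these shifts in the results below was not tested. As these are bulk samples, fewer cells of a type and less RNA per cell cannot be told apart.

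More genes passed for MK-8722 in WT than in AMPK KO cells, and the 2 genotypes responded differently at 2762 genes (17.5% of those tested, edgeR quasi-likelihood test, adjusted p under 0.05 and a fold of at least 1.2). The AMPK KO response was lower at 1573 of them (9.94%) and higher at 1189 (7.51%). Within WT cells 2901 genes passed the same thresholds (18.3%), 1774 of them up (11.2%) and 1127 down (7.12%). Within AMPK KO cells 713 passed (4.5%), 400 up (2.53%) and 313 down (1.98%), a count that dropped to 231 when passages were not used as a block. Of the WT responders 63.3% also passed for the interaction, and of the AMPK KO responders 51.1% did.

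The median size of an interaction among the 2762 genes was 0.44 on the log2 scale, and 346 genes reached a size of 1 or more, 218 of them lower and 128 higher. At 1706 of the genes (61.8%) the treatment response passed in WT alone, at 233 (8.44%) in AMPK KO alone, at 93 (3.37%) in both with opposite signs and at 38 (1.38%) in both with the same sign. At the other 692 (25.1%) neither response passed by itself. Those were mostly small opposed shifts, with fitted responses of opposite sign in 299 of 300 of the lower and 392 of 392 of the higher genes. The fold threshold largely fixes this outcome. Responses of the same sign that both lie under the threshold cannot differ by as much as the threshold. The opposite signs therefore describe these genes and are not evidence of opposed responses. Classes of this type depend on where a threshold sits, so a response that passed in WT alone is not shown to be absent from AMPK KO cells.

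**Figure D1:**
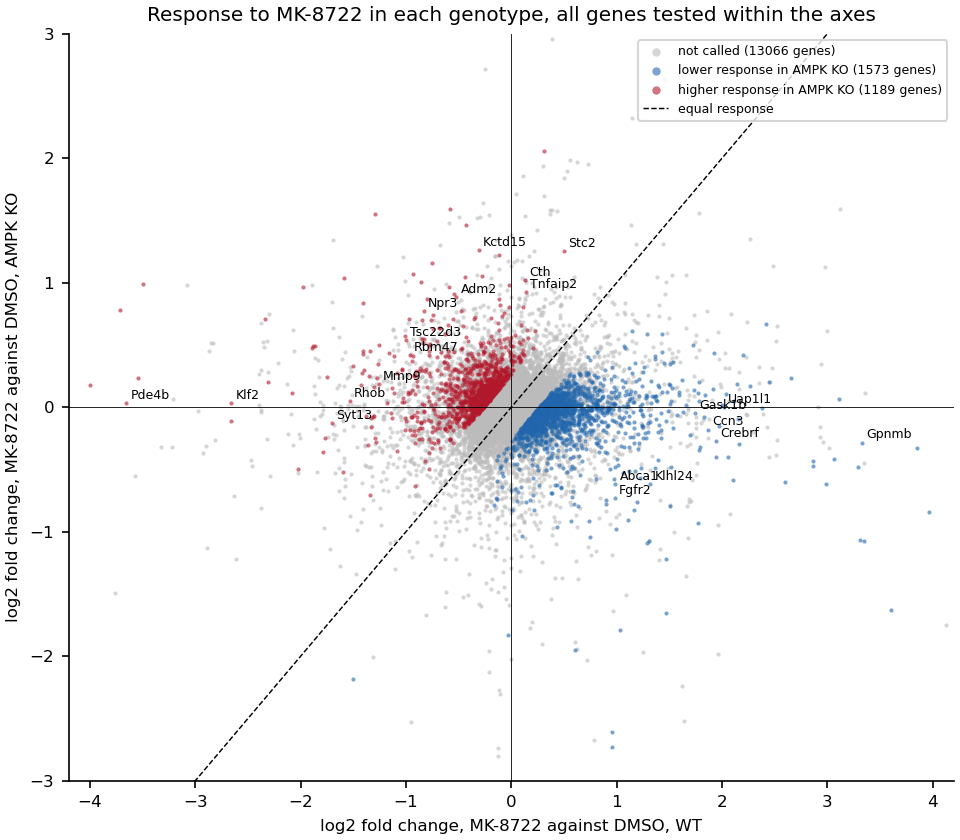
Log2 fold change with MK-8722 against DMSO in WT (horizontal axis) and in AMPK KO MEFs (vertical axis) for 15816 genes, the other 12 lying outside the axes; each point is a gene, coloured by its interaction call, and the dashed line marks equal responses. The coloured points spread along the horizontal axis, with 1573 genes below and 1189 above the line of equal response.

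Each passage gave its own response, the log2 ratio of its MK-8722 to its DMSO library, and all 4 AMPK KO ratios lay on 1 side of all 4 WT ratios at 2527 of the 2762 genes (91.5%). Among all genes tested this happened at 4930 (31.1%), with the AMPK KO ratios above at 2493 (15.8%) and below at 2437 (15.4%). The genes with a lower interaction had a median ratio between 0.38 and 0.44 in each WT passage and between -0.07 and -0.05 in each AMPK KO passage. Those with a higher interaction had medians between -0.31 and -0.27 in WT passages, beside 0.11 to 0.14 in AMPK KO passages. The second set had medians on both sides of 0, whereas the medians of the first were near 0 in AMPK KO cells. Both sets were called on the difference between the responses in these same libraries. The ratios of the called genes therefore describe the calls and do not test them.

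Among the largest positive interactions were those of genes that MK-8722 lowered in WT cells and that kept overlapping levels in AMPK KO cells. Pde4b (ENSMUSG00000028525, chr4:102087543-102607259, GRCm38), a phosphodiesterase that degrades cAMP, was counted at 9.61, 10.5, 13.1 and 13.4 CPM in the WT DMSO libraries of passages 12, 13, 14 and 15 and at 0.877, 0.973, 0.831 and 1.02 CPM in their MK-8722 partners. In AMPK KO libraries of passages 16, 17, 18 and 19 it was at 23.8, 22.7, 20.8 and 23.6 CPM with DMSO and 23.2, 23.5, 23.7 and 22.8 CPM with MK-8722. The WT groups did not overlap and the AMPK KO groups did, and the interaction was 3.69 (SE 0.15, adjusted p = 1.3e-13). In the separate counts of its transcripts, the 3 with a mean above 1 CPM all passed for a higher interaction, against 1224 of all 56835 transcripts tested in either direction (2.15%), at 3.41 (SE 0.21), 4.28 (SE 0.52) and 5.51 (SE 0.87).

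Klf2 (ENSMUSG00000055148, chr8:72319033-72321656), a Krüppel-like transcription factor, stood at 22, 26.8, 22.6 and 22 CPM in WT DMSO and 4.97, 3.46, 3.13 and 3.18 CPM in WT MK-8722 libraries, in the same order of passages. Its AMPK KO values were 13.2, 12.7, 17.9 and 14.4 CPM with DMSO and 14.5, 14.5, 16.2 and 14.5 CPM with MK-8722, overlapping sets. Its interaction was 2.69 (SE 0.28, adjusted p = 1e-05). Rhob (ENSMUSG00000054364, chr12:8497661-8500009), a small GTPase and an immediate early gene, went from 101, 123, 112 and 107 CPM to 37.5, 41.6, 36.3 and 37.7 CPM in WT. In AMPK KO cells it was at 72.9, 83, 85.3 and 89.4 CPM with DMSO and 73.1, 89.7, 90.9 and 88.6 CPM with MK-8722, and its interaction was 1.58 (SE 0.09, adjusted p = 1.9e-09). For both genes every WT MK-8722 library lay below every WT DMSO library.

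Other genes in this group moved in both genotypes. Tsc22d3 (ENSMUSG00000031431, chrX:140539528-140600659), the glucocorticoid-induced leucine zipper, had 21.5, 18.3, 17.4 and 18.2 CPM in WT DMSO and 12.9, 9.11, 7.55 and 8.25 CPM in WT MK-8722 libraries. Its AMPK KO libraries had 18.2, 18.4, 24 and 21.5 CPM with DMSO and 29.4, 25, 34.4 and 30.6 CPM with MK-8722, so that the groups were apart within each genotype and in opposite directions. The WT response was -1.0, the AMPK KO response 0.54 and the interaction 1.54 (SE 0.14, adjusted p = 1.7e-07). Rbm47, an RNA-binding protein, had the same form, with responses of -0.96 and 0.42 and an interaction of 1.38 (SE 0.12, adjusted p = 9.2e-09). Adm2, a peptide hormone of the adrenomedullin family, had an interaction of 1.40 (SE 0.16, adjusted p = 7.1e-07), from a WT response of -0.52 and an AMPK KO response of 0.88.

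Npr3, the clearance receptor for natriuretic peptides, had an interaction of 1.60 (SE 0.31, adjusted p = 0.0012). Its AMPK KO response of 0.77 did not pass (adjusted p = 0.07). Syt13, a synaptotagmin, and the gelatinase Mmp9 also entered the 10 largest positive values of genes averaging at least 5 CPM, at 1.58 and 1.45. Both were low in WT cells, at 0.73 ± 0.217 and 0.378 ± 0.166 CPM with DMSO, so their WT falls rest on 25 and 15 counts per library at most. Across all 2762 genes, 225 (8.15%) averaged under 1 CPM in 1 of the genotypes.

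Among genes averaging at least 5 CPM, the 10 largest negative interactions belonged to genes that rose in WT cells, except Tmco4. Crebrf (ENSMUSG00000048249, chr17:26715650-26776635), a regulator that promotes loss of the CREB3 transcription factor, was at 5.59, 4.97, 5.86 and 5.19 CPM in WT DMSO and 22.8, 20.6, 19.8 and 19.8 CPM in WT MK-8722 libraries. Its AMPK KO libraries held 9.92, 8.29, 9.69 and 9.26 CPM with DMSO and 9.27, 6.17, 8.27 and 7.23 CPM with MK-8722. The WT groups stood apart and the AMPK KO groups overlapped, and the interaction was -2.21 (SE 0.11, adjusted p = 4.1e-12).

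Uap1l1 (ENSMUSG00000026956, chr2:25359889-25365682), a relative of the enzyme that makes UDP-N-acetylglucosamine, differed in 1 group alone. It was at 29.6, 27.6, 28.9 and 28 CPM in WT DMSO and 113, 114, 119 and 114 CPM in WT MK-8722 libraries. Its AMPK KO values were 27.7, 28, 32.9 and 30.8 CPM with DMSO and 30, 29.4, 31.5 and 28.4 CPM with MK-8722. The DMSO libraries of the genotypes overlapped, and the WT MK-8722 libraries stood above those of the other 3 groups, with an interaction of -2.02 (SE 0.16, adjusted p = 5.3e-07). Of its 6 transcripts tested, 4 passed for a lower interaction.

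Renbp, an N-acetylglucosamine epimerase, and Slc27a1, a fatty acid transport protein, also rose in WT cells alone. Renbp averaged 4.61 ± 0.565 CPM in WT DMSO and 20 ± 2.83 CPM in WT MK-8722 libraries, against 11 ± 1.01 and 11.4 ± 1.12 CPM in AMPK KO libraries, an interaction of -2.06 (SE 0.19, adjusted p = 8.9e-07). For Slc27a1 the means were 10.5 ± 0.783, 41.8 ± 3.86, 35.9 ± 3.43 and 36.4 ± 3.5 CPM in that order, and the interaction was -1.98 (SE 0.19, adjusted p = 4.1e-06). Ccn3, a matricellular protein, had an interaction of -2.05 (SE 0.23, adjusted p = 4.8e-06).

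Klhl24, a substrate adaptor of a ubiquitin ligase, rose in WT and fell in AMPK KO cells. Its values were 14, 13.8, 12.2 and 10.7 CPM with DMSO and 37.9, 29, 28.5 and 31.5 CPM with MK-8722 in WT. They were 16.9, 15.5, 15.7 and 14.8 CPM with DMSO and 12.9, 9.01, 10.5 and 8.83 CPM with MK-8722 in AMPK KO cells, with no overlap between treatments in either genotype. The responses were 1.32 and -0.62 and the interaction -1.93 (SE 0.12, adjusted p = 3.1e-10).

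The other 4 of the 10 largest negative values came from genes with little expression in AMPK KO cells. Gask1b, a Golgi protein, averaged 101.6 ± 6.95 CPM in WT DMSO and 1.82 ± 0.76 CPM in AMPK KO DMSO libraries, and Limch1, an actomyosin-binding protein, 12.8 ± 4.21 and 0.218 ± 0.14 CPM. Gpnmb, a lysosomal transmembrane glycoprotein, averaged 4.4 ± 1.2 and 0.842 ± 0.181 CPM, with 12 to 33 counts in an AMPK KO library. Their interactions were -1.79 (SE 0.29, adjusted p = 4e-04), -2.37 (SE 0.41, adjusted p = 0.00012) and -3.62 (SE 0.48, adjusted p = 6e-05). Tmco4, a membrane protein, was at -1.80 and rested on the fewest counts: it had 3 to 16 in AMPK KO DMSO and 0 to 3 in AMPK KO MK-8722 libraries, its passage ratios overlapped between genotypes, and its call was lost in 16 of the 36 other settings that gave it a value.

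**Figure D2:**
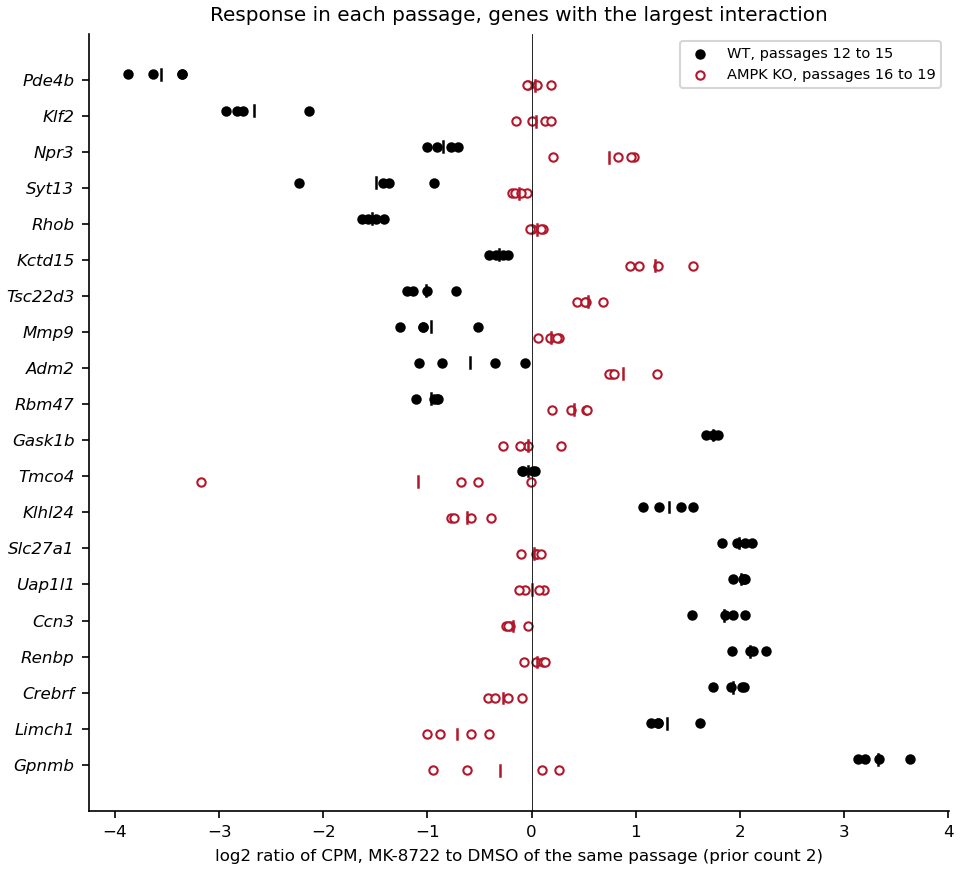
Log2 ratio of CPM between the MK-8722 and the DMSO library of the same passage, for the 10 genes averaging at least 5 CPM with the largest interaction in each direction; filled points are the 4 WT passages, open points the 4 AMPK KO passages, and short bars their means. The open points cluster near 0 for genes such as Pde4b and Uap1l1, stand on the other side of 0 from the filled points for Tsc22d3 and Klhl24, and mix with them for Tmco4.

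At a smaller group of genes the AMPK KO response was the larger one. Among those averaging at least 5 CPM, Kctd15, a BTB-domain protein, Stc2, a secreted glycoprotein, Cth, the enzyme that makes cysteine from cystathionine, Tnfaip2, an exocyst-related protein, and Adm2 had the largest AMPK KO responses. Stc2 was at 10.7, 6.95, 4.25 and 4.21 CPM in WT DMSO and 13.6, 9.54, 7.45 and 5.89 CPM in WT MK-8722 libraries. Its AMPK KO values were 5.43, 4.14, 5.76 and 4.15 CPM with DMSO and 14.4, 8.59, 12.7 and 11 CPM with MK-8722. It rose in both genotypes, with treatments overlapping in WT and apart in AMPK KO cells, and its interaction was 0.75 (SE 0.14, adjusted p = 0.00021).

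Cth averaged 25.1 ± 11.9 CPM with DMSO and 51 ± 23.4 CPM with MK-8722 in AMPK KO libraries, an interaction of 0.89 (SE 0.26, adjusted p = 0.02) that was lost in 8 of 37 other settings. Tnfaip2 averaged 71.3 ± 9.55 CPM in WT DMSO but 1.62 ± 0.267 CPM in AMPK KO DMSO libraries, and had an interaction of 0.78 (SE 0.13, adjusted p = 0.00012). Kctd15 averaged 0.596 ± 0.287 CPM in AMPK KO DMSO libraries, where its response of 1.27 rests on 11 to 78 counts per library.

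Opposite responses passed in both genotypes at 93 genes, 41 with a lower and 52 with a higher interaction. The passage ratios of the genotypes did not overlap at any of the 93, nor at 91.5% of all called genes and 31.1% of all genes tested. As the calls came from the same libraries, this separation describes them and does not test them. Besides Crebrf, Klhl24 and Kctd15 the genes with the largest interaction among the 93 were Fgfr2, a fibroblast growth factor receptor, and Abca1, the transporter that exports cholesterol to lipoproteins. Abca1 was at 3.83, 1.94, 3.79 and 3.21 CPM with DMSO and 7.53, 3.62, 6.78 and 7.5 CPM with MK-8722 in WT. In AMPK KO cells it was at 8.6, 6.15, 8.22 and 6.71 CPM with DMSO and 5.42, 4.55, 5.86 and 3.61 CPM with MK-8722. Treatments overlapped in WT, where passages differed in level, and were apart in AMPK KO cells, and the interaction was -1.60 (SE 0.13, adjusted p = 5.1e-09). For Fgfr2 the interaction was -1.71 (SE 0.19, adjusted p = 5.1e-06), from responses of 0.98 and -0.73. Without passages as a block the count of opposite responses was 25.

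**Figure D3:**
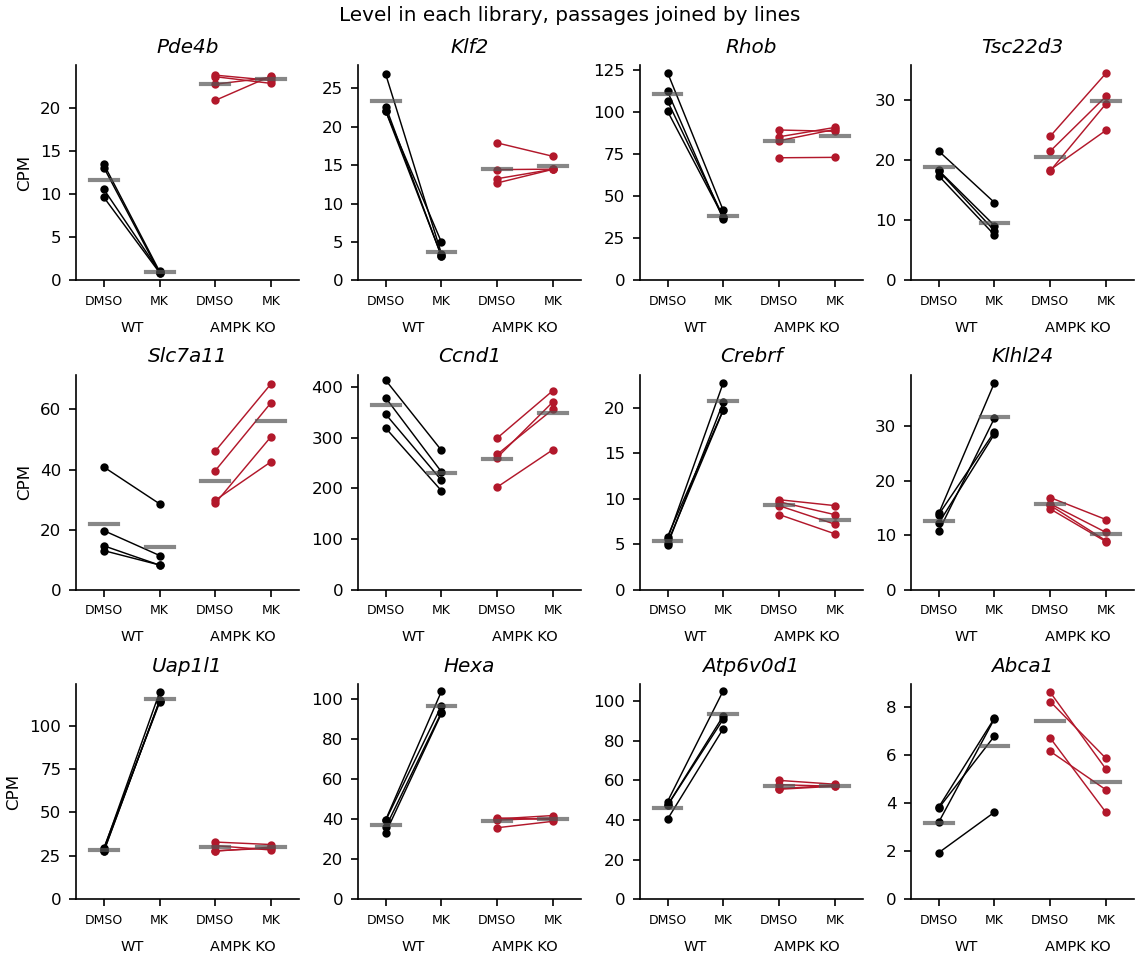
CPM in each of the 16 libraries for 12 genes, with the DMSO and MK-8722 libraries of a passage joined by a line, WT in black and AMPK KO in red, and grey bars at the group means; every vertical axis starts at 0. The lines slope in WT and run level in AMPK KO cells for Pde4b, Uap1l1, Hexa and Atp6v0d1, and slope in opposite directions for Tsc22d3, Slc7a11, Ccnd1, Klhl24 and Abca1.

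Most lysosomal genes rose in WT cells: 16 of 18 V-ATPase subunits, 33 of 49 hydrolases and activators and 23 of 36 membrane and trafficking genes passed there, beside 0, 1 and 0 in AMPK KO cells. Over all genes tested 11.2% passed as up in WT and 2.53% in AMPK KO cells. Few genes of any kind thus rose in AMPK KO cells, and the low counts there are not particular to these lists. The V-ATPase is the proton pump that acidifies lysosomes, and 16 of its 18 subunit genes tested passed as lower, the highest share of the 31 lists, against 9.94% of all genes, with a median interaction of -0.71 beside 0.003 over all genes. Of 49 lysosomal hydrolases and activators tested 35 passed as lower (median -0.55), and of 36 lysosomal membrane and trafficking genes 24 did (median -0.43). The median WT responses of the 3 lists were 0.75, 0.52 and 0.46 and the median AMPK KO responses 0.01, -0.02 and -0.003. No member of them passed as higher by edgeR or by DESeq2, and 1 membrane gene had an unadjusted p under 0.05 in that direction. The lists were drawn up knowing that lysosomal genes respond to MK-8722 in these WT cells, so their direction is not independent evidence.

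Among the pump subunits Atp6v1d, of the catalytic sector, was at 25.1, 25.5, 25.1 and 28.7 CPM in WT DMSO and 54.8, 67.2, 64.6 and 61 CPM in WT MK-8722 libraries. Its AMPK KO values were 34.6, 34.1, 34.6 and 36.3 CPM with DMSO and 31.8, 33.2, 35.3 and 32.8 CPM with MK-8722, and its interaction was -1.32 (SE 0.13, adjusted p = 2.6e-06). Atp6v0b and Atp6v0d1, of the membrane sector, had interactions of -1.28 (SE 0.09, adjusted p = 4.2e-09) and -1.02 (SE 0.07, adjusted p = 3.1e-10), and the accessory protein Atp6ap2 one of -1.06 (SE 0.09, adjusted p = 3.5e-08). All 16 called subunits responded in WT alone.

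Among the hydrolases the largest interaction was that of Neu1, the sialidase, at 19.2, 19.1, 21.3 and 19.7 CPM in WT DMSO and 56.5, 74.2, 72 and 70.1 CPM in WT MK-8722 libraries. In AMPK KO cells Neu1 was at 35.5, 32.7, 31.6 and 33.2 CPM with DMSO and 39.2, 36.4, 32.5 and 36.1 CPM with MK-8722, and the interaction was -1.66 (SE 0.09, adjusted p = 7.7e-12). Dpp7, a dipeptidyl peptidase, Hexa, a subunit of beta-hexosaminidase, and Galc, the galactosylceramidase, followed with -1.47 (SE 0.17, adjusted p = 1.6e-05), -1.33 (SE 0.08, adjusted p = 2.5e-10) and -1.19 (SE 0.08, adjusted p = 5.6e-10). The WT treatments did not overlap and the AMPK KO treatments overlapped for all 4 enzymes. The single hydrolase gene called for its response in both genotypes was Idua, the iduronidase, with responses of 1.07 in WT and 0.49 in AMPK KO cells.

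In the membrane list the cystine exporter Ctns followed Gpnmb with -1.69 (SE 0.11, adjusted p = 1.8e-10), then Ostm1, the partner of a chloride exchanger, with -1.21 (SE 0.07, adjusted p = 7.7e-12), and Pip4p1, a phosphatidylinositol phosphatase, with -1.12 (SE 0.10, adjusted p = 5.6e-08). Of 15 FLCN, FNIP and Rag GTPase genes, which govern MTORC1 at the lysosome, 10 passed as lower (66.7% against 9.94% of all genes). The median was -0.38, and 0 passed as higher, a direction in which 0 had an unadjusted p under 0.05 and DESeq2 called 0. Fnip1, a partner of folliculin, was at 28.6, 27.2, 27.5 and 28.7 CPM in WT DMSO and 71.6, 70.8, 76.7 and 67.2 CPM in WT MK-8722 libraries, with an interaction of -1.27. Among AMPK KO libraries Fnip1 was at 25.7, 20.7, 20.6 and 20.6 CPM with DMSO and 25.6, 21.6, 23.1 and 22.2 CPM with MK-8722, overlapping sets. Flcn, folliculin itself, and Fnip2 had interactions of -1.11 and -1.0, and of the 5 transcripts of Flcn tested 2 passed as lower. Rragd, a Rag GTPase, had the largest at -2.12 (SE 0.26, adjusted p = 1.6e-06), from 8 to 14 counts per WT DMSO library.

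The list of autophagy machinery and receptors was less uniform. Of 46 tested 18 passed as lower (39.1% against 9.94% of all genes) and 2 as higher (4.35% against 7.51%), with a median of -0.18. From here on a value in parentheses after a gene is its interaction on the log2 scale with its SE. The called genes included the cargo receptors Sqstm1 (-0.89, SE 0.14), Optn (-0.81, SE 0.10), Bnip3 (-0.79, SE 0.11) and Calcoco1 (-0.76, SE 0.07). Bnip3 rose in WT and fell in AMPK KO cells. Atg5 (0.30) and Wipi2 (0.43), which act in membrane conjugation and phagophore growth, passed as higher. Of the MiT/TFE factors, the TFEB family, 3 of 4 were tested, and 2 of these passed as higher (66.7% against 7.51% of all genes). Tfe3 passed as higher at 0.27 (SE 0.05, adjusted p = 1e-04) and Tfeb at 0.27 (SE 0.10, adjusted p = 0.044), calls lost in 8 and 30 of 37 other settings. Both fell in every WT passage, with ratios of -0.30 to -0.22 for Tfe3 and -0.44 to -0.25 for Tfeb. In AMPK KO passages the ratios were -0.07 to 0.13 and -0.18 to 0.03. Neither passed with library size alone as the scaling, and Mitf was at 0.37 (SE 0.19, adjusted p = 0.16).

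The promoters of these genes were searched for the E-box core CACGTG and for its extended form TCACGTGA, which contains the core and is the element bound by TFEB family factors. The window ran from 250 bases before to 50 bases after the start given by RefSeq for GRCm38, on both strands, for the 8611 tested genes with exactly 1 listed start. The extended form was present in 63 of 940 genes with a lower interaction (6.702%), in 4 of 692 with a higher one (0.578%), in 103 of 6979 not called (1.476%) and in 1.974% of all. Outside the lysosomal, Rag and autophagy lists 53 of 867 lower genes held it (6.113%). It occurred in 3 of 11 V-ATPase, 7 of 25 membrane and 4 of 33 hydrolase promoters. The core alone or extended was present in 20.11% of lower, 10.55% of higher and 8.855% of genes not called. The core was also in 9 of 28 promoters of the ribosome biogenesis list (32.14%), which held the extended form in 0. A match is a description of the letters in the window and not evidence of binding.

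The stretches below show the element in some of the genes called for the interaction and named here or in these lists, with 1 that lies outside the lists (Crebrf). Genes on 1 chromosome were passed over, as were stretches not upstream of both the RefSeq start and the GENCODE gene. The stretches are therefore not all the matches in these lists, and no V-ATPase promoter is among them. Each is 30 bases long and upstream of the start, written 5′ to 3′ on the strand of the gene with the extended E-box in capitals.
Dpp7 (chr2:25356388-25356417, minus strand): ccgccagactaTCACGTGAtgctgccccgc
Pip4p1 (chr14:50930886-50930915, minus strand): gggccagcctgTCACGTGAgcggggcggca
Gla (chrX:134601215-134601244, minus strand): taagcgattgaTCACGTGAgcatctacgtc
Igf2r (chr17:12769737-12769766, minus strand): gaacgaggacgTCACGTGAgcaggaggcgg
Crebrf (chr17:26715513-26715542, plus strand): cccctctggtgTCACGTGAcgggcgctagc
Gla, the alpha-galactosidase, had an interaction of -0.75 and Igf2r, the receptor that carries hydrolases to lysosomes, one of -0.42. The interactions of the genes shown ran from -2.21 (Crebrf) to -0.42. Only called genes were shown, and the element was also in 103 promoters of genes not called and 4 of genes with a higher interaction.

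**Figure D4:**
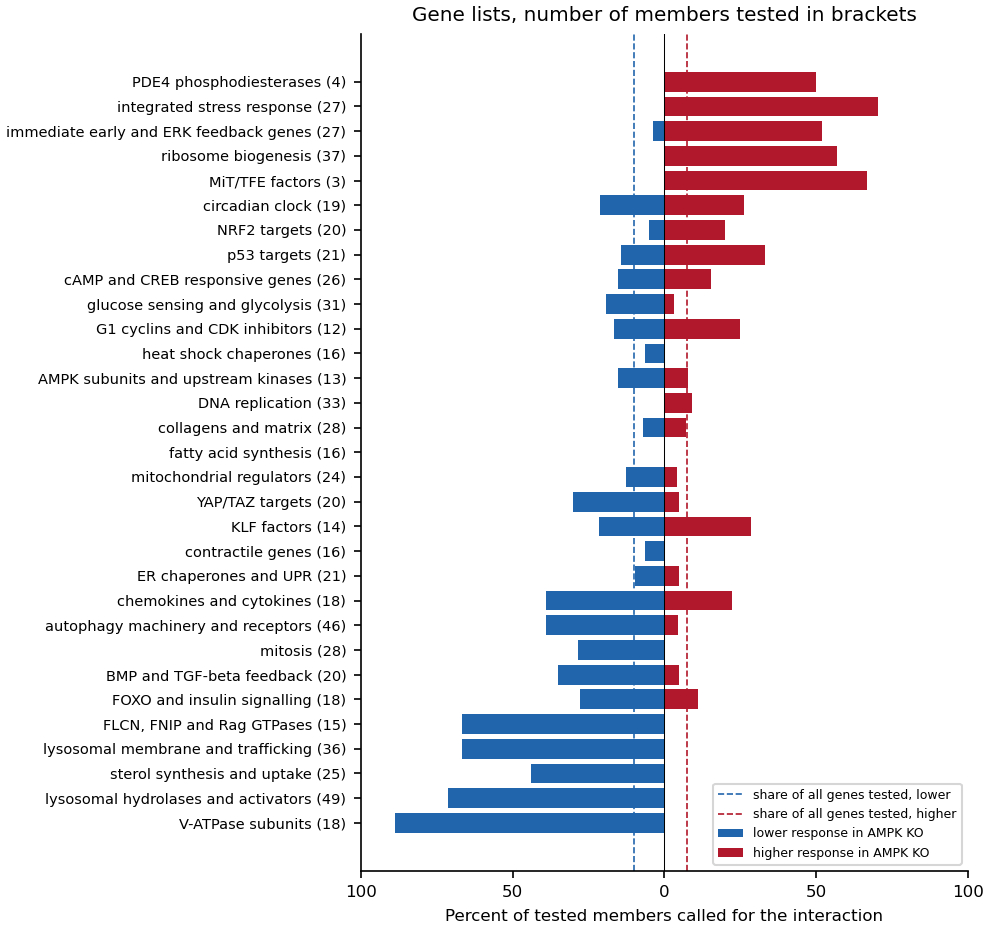
Percent of the tested members of 31 gene lists called for the interaction, lower to the left and higher to the right, ordered by the median interaction, with the number tested in brackets; dashed lines mark the shares over all genes tested (9.94% lower, 7.51% higher). The V-ATPase, hydrolase, membrane and FLCN, FNIP and Rag lists extend far to the left and the integrated stress response, ribosome biogenesis and immediate early lists to the right.

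Genes of the integrated stress response, the program driven by ATF4 when amino acids are short or proteins misfold, mostly fell in WT cells or rose in AMPK KO cells, or did both. Of 27 tested 19 passed as higher, the highest share of the 31 lists, against 7.51% of all genes, and 0 as lower, with a median interaction of 0.66. Their median response was -0.20 in WT and 0.36 in AMPK KO cells. In WT 10 fell and 2, Stc2 and Ppp1r15a, rose, and in AMPK KO cells 15 rose and 0 fell. Over all genes tested 7.12% fell and 11.2% rose in WT, and 2.53% rose and 1.98% fell in AMPK KO cells. The absence of falls in AMPK KO cells is therefore near the share of all genes. DESeq2 called 21 as higher and 0 as lower, and 1 gene had an unadjusted p under 0.05 for a lower interaction, whereas 10 passed as higher without passages as a block.

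Ddit4, an inhibitor of MTORC1, was at 65.5, 48.2, 53.1 and 61.3 CPM in WT DMSO and 33.2, 27.2, 27.8 and 30.8 CPM in WT MK-8722 libraries. Its AMPK KO values were 36.1, 35.7, 47.8 and 40.3 CPM with DMSO and 54.3, 48, 58.2 and 51.4 CPM with MK-8722. The treatments were apart in both genotypes, down in WT and up in AMPK KO cells, with an interaction of 1.35 (SE 0.14, adjusted p = 6.6e-06). Slc7a11, the cystine and glutamate exchanger, was at 40.8, 19.7, 13 and 14.6 CPM with DMSO and 28.6, 11.4, 8.25 and 8.21 CPM with MK-8722 in WT. In AMPK KO cells it was at 46.2, 29.8, 39.7 and 28.8 CPM with DMSO and 68.5, 42.6, 62.2 and 50.9 CPM with MK-8722. Passages differed in level and the treatments overlapped in both genotypes, while every WT passage ratio (-0.51, -0.78, -0.65 and -0.83) lay below every AMPK KO passage ratio (0.57, 0.51, 0.65 and 0.82). Its interaction was 1.31 (SE 0.11, adjusted p = 5.1e-08).

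Sesn2, a leucine sensor that restrains MTORC1, rose in AMPK KO and fell in WT cells, with an interaction of 1.02 (SE 0.16, adjusted p = 0.00028). Trib3, a pseudokinase, rose in AMPK KO cells by 0.72 and had a WT response of -0.19 that did not pass, with an interaction of 0.91 (SE 0.15, adjusted p = 0.00052). Further members with a higher interaction were Atf4 itself (0.47), the aminotransferase Psat1 (0.68), the asparagine synthetase Asns (0.66), the glutathione-degrading enzyme Chac1 (0.80) and the amino acid carrier Slc7a5 (0.75). Among ER chaperones and genes of the unfolded protein response 14.3% passed, near the 17.5% of all genes. Of 21 tested 1 passed as higher and 2 as lower (median -0.10). The first was Herpud1 (0.60, SE 0.12), a part of ER-associated degradation, and the others Atf6, a sensor of the response (-0.37, SE 0.05), and Edem1, a lectin for misfolded glycoproteins (-0.27, SE 0.07), which was lost in 15 of 37 other settings.

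The ATF4 element TGATGNAA was searched in the same windows on both strands. It was present in 6 of 19 promoters of the integrated stress response list (31.58%), in 9 of 81 of the genes that rose in AMPK KO cells alone with a higher interaction (11.11%), in 4.624% of all genes with a higher interaction, in 2.553% of those with a lower one and in 2.021% of all. These sets can share promoters, as 6 genes of the stress response list responded in AMPK KO cells alone. The share outside that list was not counted. The element also lay upstream of Atp6v0d1 (-1.02), Manba (-0.65), Smpd1 (-0.37) and Lamtor4 (-0.26), called as lower and not shown. The ATF4 element is shown in capitals for Slc7a11 and, on the opposite strand, for Herpud1, picked because both moved in opposite directions in the genotypes.
Slc7a11 (chr3:50443661-50443690, minus strand): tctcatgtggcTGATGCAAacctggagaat
Herpud1 (chr8:94386306-94386335, plus strand): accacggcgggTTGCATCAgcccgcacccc
The ATF4 element was also in 3 of 33 promoters of lysosomal hydrolases and 1 of 11 of V-ATPase subunits (9.091% in both lists), and in 4.839% of promoters with a higher and 4.587% with a lower interaction of at least 1 on the log2 scale. The CRE TGACGTCA was in 2.89% of higher and 1.915% of lower genes against 3.345% of all, the AP-1 element TGANTCA in 4.769% and 4.787% against 4.552%, and the E2F element TTTCCCGC in 1.879% and 1.489% against 2.288%. Among genes with an interaction of at least 1 the AP-1 element was in 9 of 62 promoters of higher (14.52%) and 9 of 109 of lower genes (8.257%).

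Among immediate early and ERK feedback genes, which report signalling through the MAP kinase ERK, 14 of 27 tested passed as higher. That is 51.9% against 7.51% of all genes, with 1 lower and a median of 0.30. The count passing as higher was 9 without passages as a block. Etv5, an ETS factor induced by ERK, was at 56.4, 43.4, 41.5 and 44.7 CPM in WT DMSO and 43.2, 34.4, 30.4 and 28.2 CPM in WT MK-8722 libraries. In AMPK KO libraries it was at 41.6, 51.2, 49.2 and 43.5 CPM with DMSO and 70.6, 73.9, 73.3 and 72.5 CPM with MK-8722. Treatments overlapped in WT and were apart in AMPK KO cells, and the interaction was 1.10 (SE 0.07, adjusted p = 5e-11). Dusp6, the phosphatase of ERK, fell in WT and rose in AMPK KO cells, with an interaction of 0.95 (SE 0.09, adjusted p = 2.3e-08), and Spry1, a feedback inhibitor, had one of 0.95 (SE 0.25, adjusted p = 0.0069). The exception was Dusp4, another MAP kinase phosphatase, which rose in both genotypes and more in WT (-1.16, SE 0.21), from 0.815 ± 0.0343 CPM in WT DMSO libraries.

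Growth and cell cycle genes moved by smaller amounts. Of 37 ribosome biogenesis genes 21 passed as higher (56.8% against 7.51% of all genes) and 0 as lower. The median interaction was 0.28, beside a median WT response of -0.16 and a median AMPK KO response of 0.12. By unadjusted p under 0.05, 35 were higher and 0 lower, and DESeq2 called 22 higher and 0 lower. At 14 of the 21 neither response passed by itself, and 1, Tsr1, reached a fold of 1.5. The 4 largest were Tsr1 (0.64, SE 0.07), a factor of small subunit maturation, Rrp12 (0.51, SE 0.06), Utp4 (0.50, SE 0.08) and Bop1 (0.49, SE 0.05), which act in rRNA processing.

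Of 12 G1 cyclins and inhibitors 3 passed as higher (25% against 7.51% of all genes) and 2 as lower (16.7% against 9.94%), with a median of 0.05. Ccnd1, cyclin D1, was at 413, 319, 346 and 379 CPM in WT DMSO and 275, 195, 216 and 233 CPM in WT MK-8722 libraries. In AMPK KO libraries Ccnd1 was at 203, 299, 267 and 261 CPM with DMSO and 276, 393, 356 and 371 CPM with MK-8722. The WT treatments were apart, the AMPK KO treatments overlapped, and the interaction was 1.11 (SE 0.08, adjusted p = 4.8e-09). Ccnd2 also fell in WT and rose in AMPK KO cells (0.75, SE 0.05), and Ccnd3 passed with a call lost in 9 of 37 other settings (0.28, SE 0.06). The inhibitors Cdkn2c (-0.33, SE 0.07) and Cdkn1b (-0.27) passed as lower, and neither did without passages as a block.

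Of 33 DNA replication genes 3 passed as higher and 0 as lower by edgeR and by DESeq2 (median 0.04), with 6 lower at an unadjusted p under 0.05. The 3 were Ccne1, cyclin E1 (0.68, SE 0.10), E2f2, an E2F factor (0.46, SE 0.08), and Tyms, the thymidylate synthase (0.32, SE 0.05). The share that passed as higher, 9.09%, was near the 7.51% of all genes. Of 28 mitosis genes 8 were lower, 28.6% against 9.94% of all genes, with a median of -0.20, and 24 lower against 0 higher at an unadjusted p under 0.05. DESeq2 called 7 lower and 0 higher. The mitosis differences were small, led by the spindle protein Nusap1 (-0.48, SE 0.06) and the kinetochore motor Cenpe (-0.39, SE 0.05), and 0 of them reached a fold of 1.5.

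Since Pde4b degrades cAMP, the rest of its family and cAMP-responsive genes were listed. Of 4 PDE4 genes Pde4a also passed as higher at 0.35 (SE 0.07, adjusted p = 0.00053), whereas Pde4d was at -0.23 (SE 0.10, adjusted p = 0.11) and Pde4c at 2.83 (SE 1.34, adjusted p = 0.18). Of 26 cAMP and CREB responsive genes 4 passed as higher and 4 as lower (median 0.07). Each share was 15.4%, against 7.51% of all genes higher and 9.94% lower. Areg, the growth factor amphiregulin (0.99, SE 0.19), was the largest of the higher and Gem, a small GTPase (-1.38, SE 0.18), of the lower, followed by Hdac5, a class IIa deacetylase (-0.62, SE 0.07), and the neurotrophin Bdnf (-0.60, SE 0.16).

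Among 14 Krüppel-like factors 4 passed as higher (28.6% against 7.51% of all genes) and 3 as lower (21.4% against 9.94%), with a median of -0.06. Klf4 followed Klf2 at 0.80 (SE 0.12, adjusted p = 4e-05), while Klf11 (-0.91, SE 0.17) fell in AMPK KO cells alone and Klf5 (-0.62, SE 0.08) rose in WT alone. The circadian clock list split in a similar way, with 5 of 19 higher (26.3%) and 4 lower (21.1%) and a median of 0.15. Per2, a repressor of the clock, fell in WT from 5.56, 3.73, 3.62 and 4.03 CPM to 3.22, 1.79, 1.73 and 1.57 CPM and was at 12.1, 10.9, 13.8 and 12.5 CPM with DMSO and 15.2, 12.5, 19.1 and 14.5 CPM with MK-8722 in AMPK KO cells, an interaction of 1.34 (SE 0.14, adjusted p = 1.3e-07). The nuclear receptors Rora (-1.43, SE 0.30) and Nr1d1 (-0.97, SE 0.16) and the repressor Bhlhe40 (-1.07, SE 0.17) passed as lower, each by a rise in WT.

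In lipid metabolism, 11 of 25 genes of sterol synthesis and uptake passed as lower (44% against 9.94% of all genes), with a median of -0.47. None passed as higher, by DESeq2 or at an unadjusted p under 0.05 either. The count of lower genes rested on single libraries. The median WT response was -0.03, 0.67, 0.18 and 0.32 in passages 12, 13, 14 and 15, against -0.20, -0.17, -0.21 and -0.16 in the AMPK KO passages, and the count was 2 without passages as a block. It was 3 without the WT DMSO library of passage 13 and 19 without the WT MK-8722 library of passage 12. Insig1, a sterol sensor, led with -1.55 (SE 0.32, adjusted p = 0.0029), and Hmgcs1, the HMG-CoA synthase, was also lower (-0.90, SE 0.27, lost in 17 of 37 other settings). Of 16 fatty acid synthesis genes 0 passed in either direction by edgeR or DESeq2 (median -0.02), with 1 higher and 3 lower at an unadjusted p under 0.05.

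In energy metabolism 22.6% of glucose sensing and glycolysis genes and 16.7% of mitochondrial regulators passed in either direction, near the 17.5% of all genes. Of 31 glucose sensing and glycolysis genes 6 were lower (19.4% against 9.94% of all genes) and 1 higher (3.23% against 7.51%), with a median of 0.07. Eno2, the neuronal enolase, led, with a rise in WT from 6.72 ± 0.622 to 25.4 ± 2.89 CPM (-1.77, SE 0.11). The glucose transporter Slc2a3 (-0.81, SE 0.18), the pyruvate dehydrogenase kinase Pdk1 (-0.67, SE 0.12) and the lactate carrier Slc16a3 (-0.48, SE 0.13) followed. Of 24 mitochondrial regulators 3 were lower (12.5%) and 1 higher (4.17%), with a median of -0.02. Cpt1a, the gatekeeper of fatty acid import into mitochondria, fell by 0.50 in AMPK KO cells beside a WT response of 0.25 that did not pass (-0.75, SE 0.07). The coactivator Ppargc1b rose in both genotypes and more in WT (-0.70, SE 0.20, lost in 5 of 37 other settings), Tfam, a mitochondrial transcription factor, was at 0.31 (SE 0.05, adjusted p = 0.00017), and Cpt2, the partner of Cpt1a, was lower with a call lost in 14 of 37 other settings (-0.28, SE 0.08).

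Of 13 AMPK subunits and upstream kinases 23.1% passed, near the 17.5% of all genes, with a median of 0.04. Prkaa2 (-0.62, SE 0.15) and Stradb (-0.34, SE 0.10, lost in 9 of 37 other settings), a pseudokinase partner of LKB1, passed as lower and the regulatory subunit Prkab1 (0.43, SE 0.06) as higher, whereas Prkaa1 was at -0.04 (SE 0.06, adjusted p = 0.66). Of 18 FOXO and insulin signalling genes 5 were lower (27.8% against 9.94% of all genes) and 2 higher (11.1% against 7.51%), with a median of -0.22. Ccng2, a cyclin and FOXO target, fell in AMPK KO cells (-1.04, SE 0.11), the ubiquitin ligase Fbxo32 rose in WT and fell in AMPK KO cells (-0.66, SE 0.08), and Irs2, an insulin receptor substrate, rose in WT (-0.50, SE 0.08). Bcl6, a repressor, was higher at 0.62 (SE 0.20, adjusted p = 0.022), a call lost in 9 of 37 other settings, and none of the list was higher without passages as a block.

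Signalling and stress lists were divided. Of 20 YAP/TAZ targets 6 were lower (30% against 9.94% of all genes) and 1 higher (5% against 7.51%), with a median of -0.04. Tissue factor F3 (-1.58, SE 0.25) stood ahead of Crim1 (-0.82, SE 0.06) and the matricellular genes Ccn2 (-0.82, SE 0.15) and Ccn1 (-0.73, SE 0.12), all rising in WT. Of 20 BMP and TGF-beta feedback genes 7 were lower (35%), 4 without passages as a block, and 1 was higher (5%), with a median of -0.22. The lower genes included the ligand Bmp4 (-1.65, SE 0.40), the BMP antagonist Grem1 (-0.84, SE 0.23) and the activin subunit Inhba (-0.63, SE 0.20, lost in 20 of 37 other settings). Grem1 rose in both genotypes.

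Of 18 chemokines and cytokines tested, from 24 listed, 7 were lower and 4 higher (median -0.15). These are 38.9% and 22.2%, against 9.94% and 7.51% of all genes, and 3 were lower without passages as a block. Cxcl10, a T cell attractant, rose in WT and fell in AMPK KO cells (-1.48, SE 0.09). The epithelial cytokine Tslp (-1.21, SE 0.26), the monocyte attractant Ccl7 (-1.17, SE 0.35) and the interleukin 33 receptor Il1rl1 (-0.89, SE 0.23) rose in WT alone. Ccl7 averaged 0.727 ± 0.383 CPM in WT DMSO libraries, and its call was lost in 6 of the 36 other settings that gave it a value.

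Of 21 p53 targets 7 were higher and 3 lower (median 0.08), and 4 and 1 without passages as a block. The shares were 33.3% and 14.3%, against 7.51% and 9.94% of all genes. Pmaip1, which encodes the BH3 protein Noxa, had the largest interaction of the list (-0.95, SE 0.14), while the death receptors Fas (-0.72, SE 0.26) and Eda2r (0.57, SE 0.21) and the BH3 gene Bbc3 (0.47, SE 0.15) lost their calls in 24, 25 and 14 of 37 other settings. Of 20 NRF2 targets 4 were higher (20%) and 1 lower (5%), with a median of 0.10. The transcription factor gene itself, Nfe2l2 (0.29, SE 0.07), fell in WT, the oxidative stress genes Osgin1 (0.41, SE 0.12, lost in 7 of 37 other settings) and Srxn1 (0.30, SE 0.08, lost in 8) were higher, and the heme oxygenase Hmox1 (-0.34, SE 0.10, lost in 6) was lower.

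Collagens and matrix genes passed at a share near that of all genes, 14.3% against 17.5%, and contractile genes and heat shock chaperones at 6.25% each. Of 28 collagens and matrix genes 2 were higher and 2 lower (median 0.03): the short-chain collagen Col8a1 (-0.86, SE 0.08), tenascin Tnc (0.48, SE 0.06), Thbs2 (-0.43, SE 0.16, lost in 24 of 37 other settings) and fibrillin Fbn1 (0.28, SE 0.06, lost in 12). Of 16 contractile genes (median -0.09) 1 was lower, Lmod1, an actin nucleator of smooth muscle (-1.49, SE 0.21), and of 16 heat shock chaperones (median 0.05) 1, the co-chaperone Dnajb4 (-0.66, SE 0.15). In both of those lists 0 were higher by edgeR or DESeq2, with 3 in each at an unadjusted p under 0.05.

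**Figure D5:**
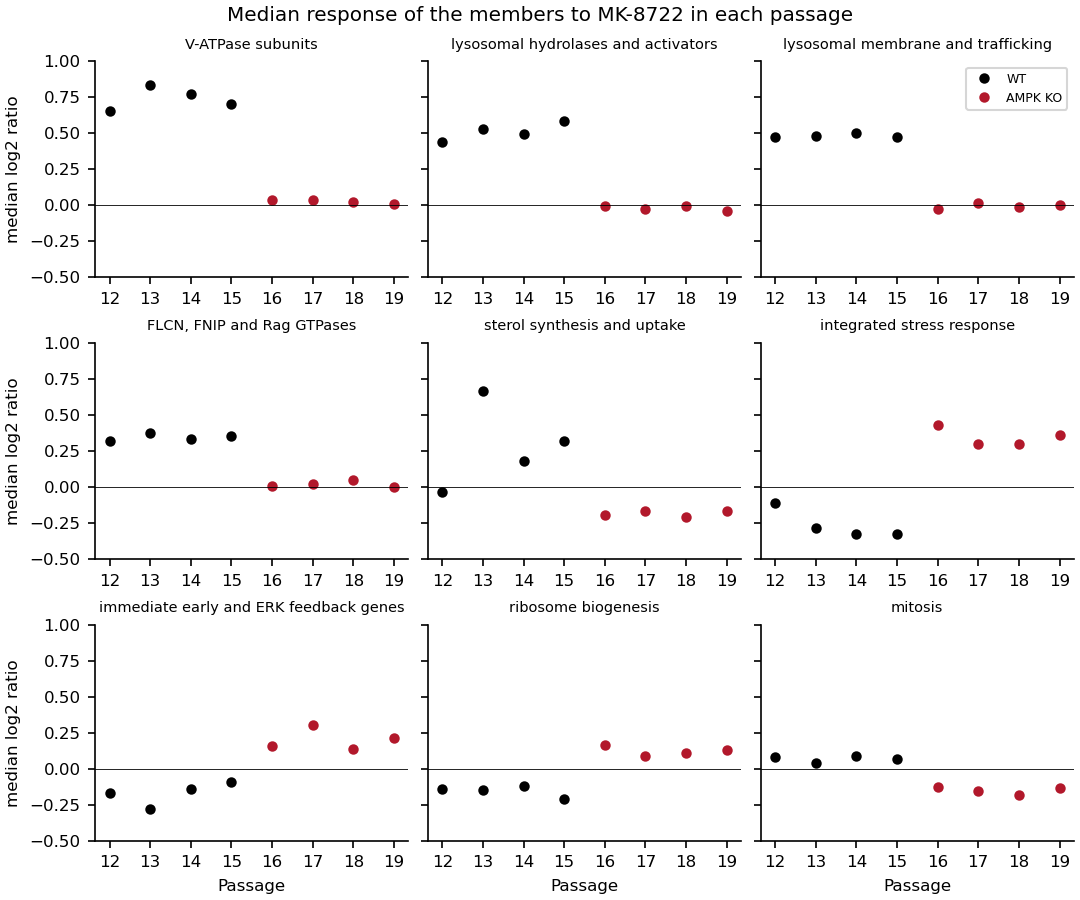
Median log2 ratio of MK-8722 to DMSO over the tested members of 9 gene lists in each passage, WT passages 12 to 15 in black and AMPK KO passages 16 to 19 in red, on a shared vertical axis. The 4 lysosomal and Rag lists lie well above 0 in each WT passage and near 0 in each AMPK KO passage, the integrated stress response, immediate early and ribosome biogenesis lists cross from below to above 0, and the sterol list scatters among the WT passages.

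At the level of transcripts, 593 of the 1224 that passed were higher and 631 lower. No gene had transcripts called in both directions by edgeR under the thresholds used for genes. For Tsc22d3 the transcript ENSMUST00000055738 passed at 1.87 (SE 0.23), while ENSMUST00000112995 had an interaction of 0.87 (SE 0.23, adjusted p = 0.073). The division of counts between transcripts of a gene is an estimate by Salmon.

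Torin1 blocks the kinase MTOR, and its libraries share the DMSO libraries with those of MK-8722, so its values are set side by side only. The log2 change of Crebrf with torin1 was 2.31 in WT and 2.17 in AMPK KO cells, against 1.94 and -0.27 with MK-8722. That of Hexa was 0.68 and 0.61 with torin1, against 1.38 and 0.05 with MK-8722, and that of Klhl24 2.46 and 2.56 against 1.32 and -0.62. For these 3 genes the torin1 values of the genotypes lay close together and those of MK-8722 far apart. They were taken from 130 named genes, and the pattern is not tallied over the rest.

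For Slc7a11 the torin1 values were -6.28 and -5.45 in WT and AMPK KO cells, against -0.67 and 0.64 with MK-8722. For Ddit4 the torin1 values were -4.31 and -2.87 and for Stc2 -3.94 and -3.15, so these 3 stress response genes lay far below their DMSO level with torin1 in both genotypes. Pde4b, which MK-8722 lowered in WT, was at 1.16 (adjusted p = 1.9e-12) in WT and 0.72 (adjusted p = 1.4e-09) in AMPK KO cells with torin1. The torin1 values of Klf2 were 0.62 (adjusted p = 0.0035) in WT and 0.05 (adjusted p = 0.81) in AMPK KO cells, and those of Rhob 0.09 (adjusted p = 0.21) and -0.46 (adjusted p = 7.3e-06). None of the 3 fell with torin1 in WT cells.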

How the data were processed

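The authors sequenced polyadenylated RNA as 52-base read pairs and processed it with nf-core/rnaseq 3.11.2 (Nextflow 23.04.1, STAR, Salmon) against GRCm38 release 102, per the study's methods. Unique molecular identifiers were considered, and their handling was not checked here. The deposited values are estimated counts per gene and per transcript, which were rounded. The TPM that the authors deposited beside them, made by Salmon, served only to weight transcript lengths in 1 alternative. From these, edgeR 4.0.16 (R 4.3.3, limma 3.58.1) fitted all 24 libraries, kept by filterByExpr and scaled by TMM, with 8 passages as a block and 4 treatment coefficients, leaving 12 residual degrees of freedom. Calls needed a Benjamini-Hochberg adjusted p under 0.05 and a fold of at least 1.2. CPM are TMM-scaled, and passage ratios have a prior count of 2. The genes tested held 99.956% of counts, and 99.9% of them had a GENCODE position.

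Passages link libraries by label. Deviations from group means correlated within a passage at r = 0.277, 0.260, -0.001 and 0.056 (WT passages 12 to 15) and at 0.367, 0.209, 0.133 and 0.048 (AMPK KO passages 16 to 19), and 6 of 8 DMSO libraries correlated best with their own passage. Replicate numbers do not follow passages.

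Named genes were Prkaa1 and Prkaa2, the 10 largest interactions in each direction with a mean of at least 5 CPM, the 5 largest AMPK KO responses that exceeded the WT response, the 5 largest opposite responses, and the 4 largest in each of 31 lists. Some genes that this rule names are not reported here. Other members are named where a count needed them, and Atf4, Psat1, Asns, Chac1, Slc7a5, Gla, Igf2r, Manba, Smpd1 and Lamtor4 after their values were seen. The members and lists were chosen with earlier results of these data known. The code was tested on simulated data. Alternatives included DESeq2 1.42.0, other scalings, filters and thresholds, no block, and leaving out each library or passage.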

Additional observations from a re-analysis of the deposited data

Results flagged for a closer look

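The responses to MK-8722 differed between AMPK KO and WT cells at 2762 genes by the interaction test itself (edgeR, adjusted p under 0.05 and a fold of at least 1.2), which is the count that the report describes. For Prkaa1, Prkaa2 and the genes named for the size or opposite direction of their responses, 54 groups of 4 passage ratios were examined for a passage that stood apart from the other 3, and 5 were found. Chance finds about 1 in 20 such groups. In AMPK KO passage 16 the log2 ratio of Prkaa1 was -0.16 against -0.01 to 0.02 in the other passages, that of Adm2 was 1.204 against 0.75 to 0.79, and that of Ccn3 was -0.032 against -0.24 to -0.21. In WT passage 12 the ratio of Rbm47 was -1.11 against -0.93 to -0.90, and that of Limch1 was 1.62 against 1.14 to 1.21. Adm2, Ccn3, Rbm47 and Limch1 had the same sign in all 4 passages of that genotype.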

How the results depend on the processing

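Each count was recomputed under 37 other settings. Leaving out 1 library at a time gave 2533 to 2887 genes with an interaction, 1091 to 1270 higher and 1369 to 1668 lower, 2622 to 3042 WT and 508 to 747 AMPK KO responses, and 1571 to 1826, 175 to 222, 67 to 112 and 619 to 688 genes responding in WT alone, in AMPK KO alone, in both with opposite signs and in neither. Without passages or replicate numbers as a block the interaction count was 1996, the AMPK KO response 231, with 75 genes in AMPK KO alone and 25 opposite. With the replicate number as the block, which does not follow passages, these were 1981, 231, 78 and 23. Without passage 19 the AMPK KO response was 423 genes and AMPK KO alone 155. With no filter on low counts 141 genes were opposite. By adjusted p alone, with no fold threshold, there were 4365 interactions (2155 higher), 5969 WT and 1913 AMPK KO responses, with 3052 genes in WT alone, 468 in AMPK KO alone, 399 opposite and 290 in neither. At a fold of at least 1.5 there were 898 interactions (333 higher, 565 lower), 949 WT and 185 AMPK KO responses, and 553, 52, 17 and 271 genes in those classes. Tested against a fold of 1.2 there were 924 interactions (305 higher, 619 lower), 1215 WT and 91 AMPK KO responses, and 660, 32, 12 and 218 genes. These thresholds act on the counts by construction, and the cause of the other shifts was not tested. DESeq2 called 2501 interactions and the 16 compared libraries by themselves 2863. With library size alone as the scaling 35.1% of calls were higher (968 higher, 1790 lower) against 43.0% with TMM and 44.8% with DESeq2 size factors. Of 4804 recomputed values of named genes 4433 kept direction and call, 370 lost the call and 1 changed sign, that of Prkaa1, never called, which ran from -0.070 to 0.021 when 1 library was left out, the latter without AMPK KO MK-8722 replicate 2. The calls of 75 of the 130 named genes were kept in every setting. Depth limits genes near 1 CPM in a genotype, whose responses rest on few counts.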
